A study of Mus musculus with 20 samples.

Results

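The genes described here are 10 members of the signalling route from Rac to actin: Rac1, Rac2, Rac3, Pak1, Pak2, Pak3, Cyfip1, Cyfip2, Wasf1 and Arpc5l. They were taken by name, as every non-control probe whose gene name in the array annotation is one of these symbols, which gave 11 probes of 39429 and 10 gene names of 30222. Rac1 had 2 probes and each other gene had 1. All 11 probes were among the 12137 that passed the spot filter in all samples. The RNA came from dorsal root ganglion (DRG) neurons of NIH Swiss mouse embryos at embryonic day 13.5, grown in chambers with compartments that separate cell bodies from axons, with horse serum and nerve growth factor, and with fluorodeoxyuridine against dividing non-neuronal cells. The medium was changed to one without serum and nerve growth factor on the night before stimulation. There were 4 samples in each of 5 conditions. Unstimulated neurons were handled alike but not connected to the stimulator, and the others were fired in bursts, either 18 action potentials once per 1 min (18/1) or 90 once per 5 min (90/5), each for 2 hr or 5 hr, so that both patterns deliver equal numbers of action potentials. The study calls the 4 samples of a condition biological replicates, and a figure legend gives 4 replicate experiments for each condition. Its methods give 5 pooled cultures for a condition and do not say whether each sample came from a pool of its own. The p-values therefore measure only the spread between these samples, which may be technical.

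Rac GTPases are small switch proteins that bind GTP when active and turn on actin assembly at the leading edge of growth cones. Active Rac binds the p21-activated kinases of group I (Pak1, Pak2 and Pak3), which act on cofilin and other cytoskeletal proteins. It also binds Cyfip1 or Cyfip2 in the WAVE regulatory complex and frees the WAVE protein, here Wasf1 (WAVE1), to switch on the Arp2/3 complex, which nucleates branched actin filaments and of which Arpc5l is a subunit. In sensory neurons this route is known for its part in axon outgrowth and growth cone turning. The comparisons here ask whether the pattern and the duration of firing altered the RNA of these genes. The study chose Rac signalling on these same arrays, so the direction of its members is not independent evidence.

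The sequences of 4 probes are shown because the results turn on them: the Rac1 pair gave different answers for a single gene, and Pak1 and Pak3 moved most and in opposite directions. Each line gives bases 31 to 60 of the 60-base probe, 5′ to 3′, with G and C in capitals, since the share of G and C over the whole probe went with the measured differences as described further on. The stretch shown was chosen after the composition of the probes had been seen, and only the count over the whole probe was used as a measure.
Rac1, brighter probe A_51_P513254: GttttCGCCttaCtttaCtCaGaGCtaGtt
Rac1, dimmer probe A_55_P2076489: GttaCaGattaatttttCCataaaaCCatt
Pak1, probe A_52_P663600: tttCtttGtGtGtGCttCtaGCaGCtGttt
Pak3, probe A_55_P2022569: CaCttGCattGtCattaGatGttCaGaaaa
The whole probes hold 25, 21, 27 and 21 G or C bases in this order. In mouse build mm9, the Rac1 probes lie on the minus strand at chr5:144266757-144266816 and chr5:144267722-144267781, so that the brighter is nearer the 3′ end of the transcript. The Pak1 probe lies at chr7:105060220-105060279 and the Pak3 probe at chrX:140226257-140226316, both on the plus strand. Which exon or untranslated region each probe covers is not given in the sources used here.

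The samples lie on 10 arrays, with both colours of an array from the same condition, and on 3 slides. Slide 1 holds the unstimulated and 18/1 2 hr samples, slide 2 the 18/1 5 hr and 90/5 2 hr samples, and slide 3 the 90/5 5 hr samples. Only 18/1 2 hr against unstimulated and 90/5 2 hr against 18/1 5 hr compare samples of a single slide; in every other comparison slide and condition cannot be told apart. Slide 2 stood apart: 5319 to 14642 spots per sample of 18/1 5 hr carried the scanner's mark for non-uniform spots, as did 3138 to 6476 on array 2 of 90/5 2 hr, against 45 to 139 on array 1 of that condition and 6 to 85 in all other samples. Saturated spots numbered 840 to 2800 per sample on slide 2, 0 to 486 on slide 1 and 0 on slide 3, and the median signal over background was 5.55 to 10.4 at 18/1 5 hr and 3.64 to 6.71 at 90/5 2 hr, against 2.27 to 2.94 on slide 1 and 2.66 to 4.91 on slide 3. Levels are given as normalized log2 intensity, on which a step of 1 is a doubling, and are compared only within a probe.

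Differences of these genes from unstimulated neurons passed the test in limma at 18/1 5 hr, and in the other stimulated conditions none did at equal array weights with all samples and the array as a block. At 18/1 5 hr, 8 of 11 probes passed an adjusted p of 0.05, 5 higher and 3 lower. Over all 12137 probes 45.1% passed in this comparison (14.3% higher and 30.8% lower). The median difference of the 11 probes was -0.12 and that of all probes -0.27. With the arrays centred on their medians alone, the median over all probes was -0.84, only 528 of 6478 called probes were higher instead of 1738 of 5474, and 1 of 6 called probes of these genes was higher. No probe of these genes passed at 18/1 2 hr (0 of 11, background 0.0165%), at 90/5 2 hr (0 of 11, background 6.07%) or at 90/5 5 hr (0 of 11, background 0.0577%) in this limma fit, while with arrays weighted by their quality 2, 1 and 3 probes passed. With these weights 1746, 2032 and 3038 of all 12137 probes passed. An unadjusted p under 0.05 was reached by 0, 1 and 0 probes of these genes in these 3 comparisons. The methods' t-test with its unadjusted p and fold limit called 1, 2 and 1. Over all probes the counts were 100, 2718 and 404 for the unadjusted p and 252, 2460 and 632 for the t-test. The medians of the 11 probes were -0.07, -0.30 and 0.03, against 0, -0.09 and -0.01 over all probes. The 4 comparisons share the unstimulated samples.

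**Figure D1:**
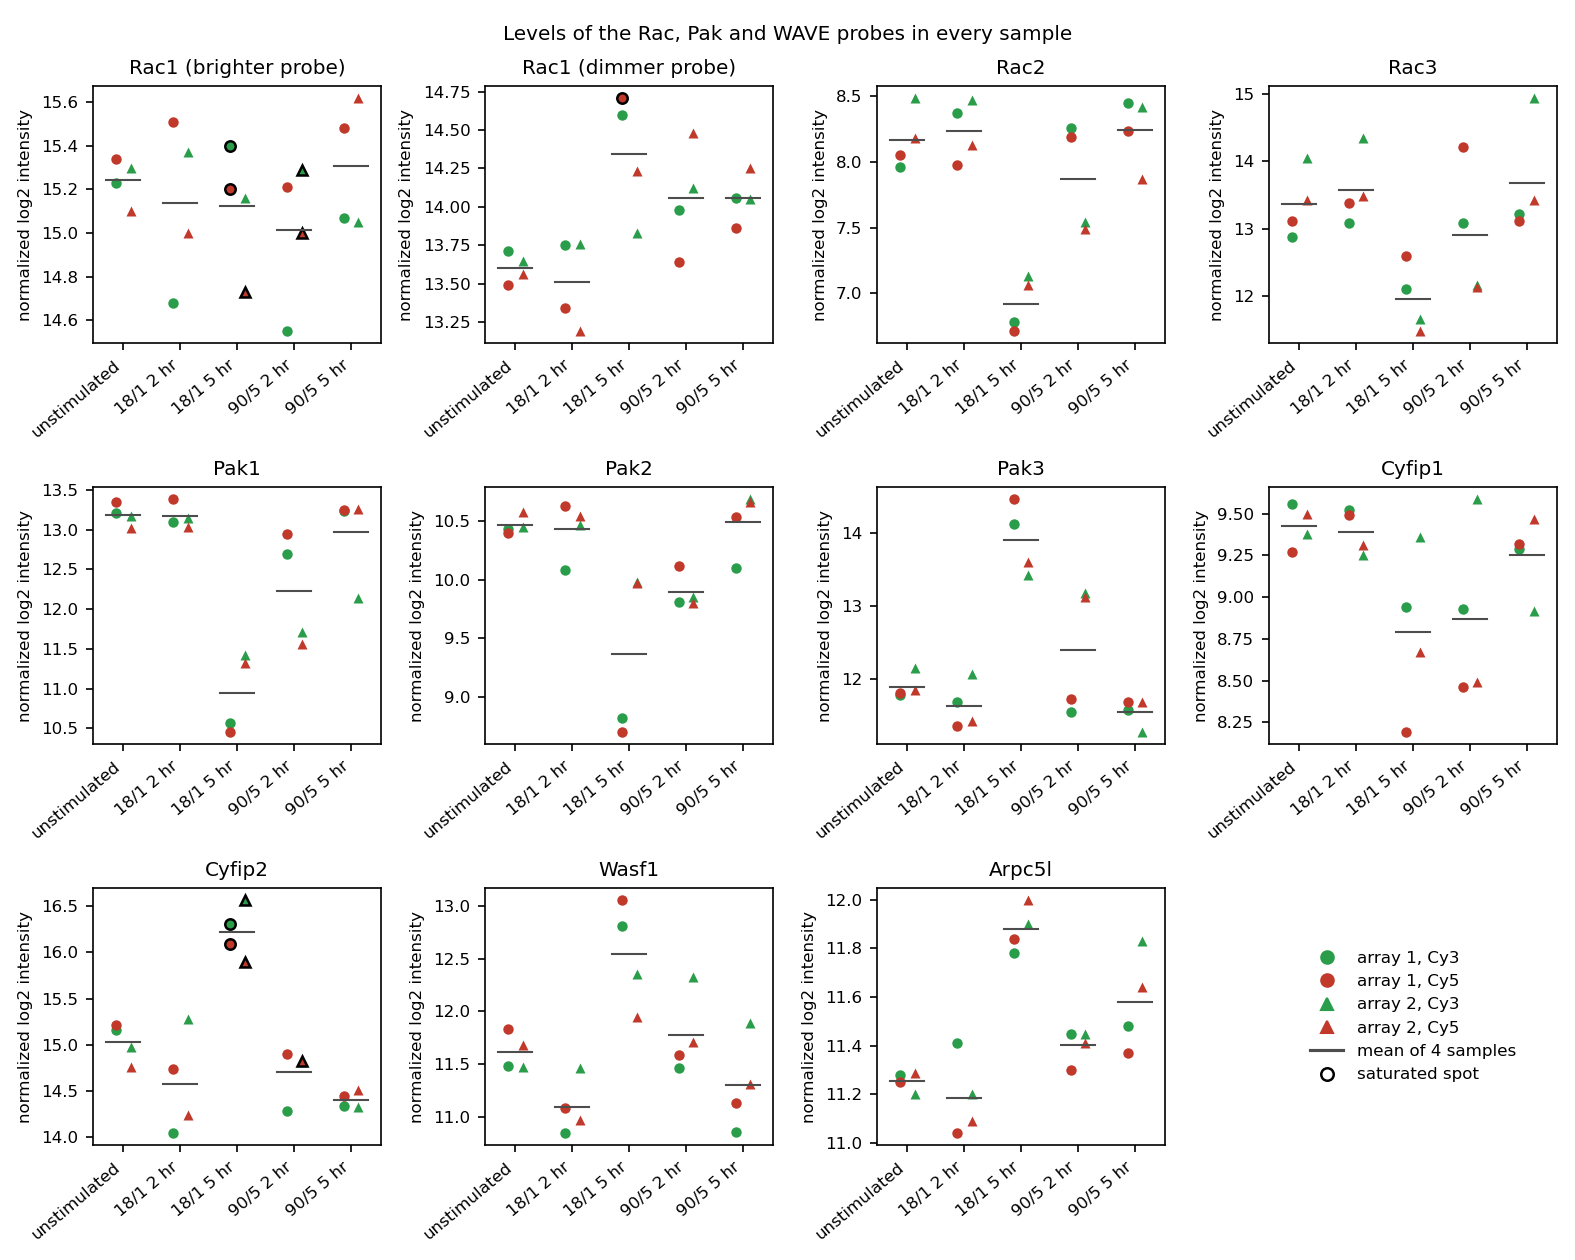
Normalized log2 intensity (vertical axis) of each of the 11 probes in the 4 samples of each condition (horizontal axis). Circles are array 1 and triangles array 2 of a condition, green is Cy3 and red Cy5, bars are means of 4 samples and black rims mark saturated spots. Pak1 sits lowest and Pak3 highest at 18/1 5 hr, and array 2 of 90/5 2 hr lies towards those levels for both.

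Of the 3 Rac genes, Rac2 fell at 18/1 5 hr, Rac3 had a difference of like direction that just missed the threshold, and Rac1 gave different answers by its probes. Rac1, the member expressed in nearly all cells, gave no difference by its brighter probe and a rise at 18/1 5 hr by its dimmer probe. Rac2, known mainly from blood cells, fell by 1.25 on the log2 scale (2.38-fold), and Rac3, a neuronal member, stood at -1.41 and did not pass. Rac2 and Rac3 had the same order of conditions by mean level. The brighter Rac1 probe measured 15.23, 15.34, 15.30 and 15.10 in unstimulated neurons and 15.40, 15.20, 15.16 and 14.73 at 18/1 5 hr. These ranges overlap, and the difference was -0.12 (SE 0.34, 95% interval -0.82 to 0.58, adjusted p = 0.795), but 3 of the 4 spots at 18/1 5 hr and 2 of 4 at 90/5 2 hr were saturated, where a rise could not be seen. The dimmer Rac1 probe measured 13.71, 13.49, 13.65 and 13.56 in unstimulated neurons and 14.60, 14.71, 13.83 and 14.23 at 18/1 5 hr, with no overlap. It rose by 0.74 (SE 0.29, 1.67-fold, adjusted p = 0.0431), and 1 of its spots at 18/1 5 hr was saturated. This call was lost without background subtraction, at the same 0.74 (adjusted p = 0.0575), with no spot filter (0.74, adjusted p = 0.134), and on leaving out array 1 of 18/1 5 hr (0.43, adjusted p = 0.253), either unstimulated array (0.74, adjusted p = 0.172 and 0.175) or most single samples of these groups. The call was also lost with median centring alone (0.76, adjusted p = 0.152). The dimmer probe's means in the other conditions were 13.51 at 18/1 2 hr, 14.06 at 90/5 2 hr and 14.05 at 90/5 5 hr. In order of level, 18/1 5 hr is followed by both 90/5 conditions, whose difference from each other had a 95% interval of -0.61 to 0.60, and then by unstimulated neurons and 18/1 2 hr.

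Rac2 measured 7.96, 8.05, 8.49 and 8.18 in unstimulated neurons. At 18/1 5 hr it measured 6.78, 6.71, 7.13 and 7.06, below every sample of the other 4 conditions. Rac2 has 10 spots on each array, of which 3 passed the spot filter in all samples and gave these values (SE of the difference 0.25, adjusted p = 0.000562). In both colours of array 1 of 18/1 5 hr, 0 of these 3 spots carried the scanner's mark for well above background, and on array 2 all 3 did, so the 2.38-fold difference rests in part on levels near background. By the mean of all 10 spots the difference was -0.76 (SE 0.27) with an adjusted p of 0.0503 over 39429 probes, so the call did not hold. The SD between the 10 spots was 0.51 to 0.65 in the 18/1 5 hr samples and 0.12 to 0.20 in the unstimulated ones. The lowest and highest Rac2 levels elsewhere were 7.98 and 8.47 at 18/1 2 hr, 7.49 and 8.26 at 90/5 2 hr, and 7.87 and 8.45 at 90/5 5 hr.

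Rac3 measured 12.88, 13.12, 14.05 and 13.43 in unstimulated neurons and 12.10, 12.59, 11.66 and 11.48 at 18/1 5 hr. The groups do not overlap, but the SE of 0.58 left an adjusted p of 0.0519. Without array 1 of 18/1 5 hr the difference was -1.80 with an adjusted p of 0.0307. Rac3 also passed with median centring alone (-1.88, adjusted p = 0.00352) and without the array block (adjusted p = 0.00991). The same held without unstimulated replicate 1 (adjusted p = 0.0435) or the Cy5 sample of array 1 of 18/1 5 hr (adjusted p = 0.0242). With the trend on probe G and C content removed, Rac3 stood at -0.39 (adjusted p = 0.587). Its SD was 0.97 at 90/5 2 hr and 0.86 at 90/5 5 hr, the largest of the 11 probes in either condition.

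Among the Pak kinases of group I, Pak1 and Pak3 gave the largest differences of the 11 probes at 18/1 5 hr, in opposite directions. Pak1 fell 4.74-fold and Pak2, the widely expressed member, fell 2.14-fold at 18/1 5 hr, while Pak3, a neuronal member, rose 4.02-fold. Pak1 measured 13.21, 13.35, 13.17 and 13.02 in unstimulated neurons and 10.57, 10.45, 11.42 and 11.32 at 18/1 5 hr. The highest of the latter lies below every sample of the other 4 conditions, and the difference was -2.25 (SE 0.38, 95% interval -3.03 to -1.46, adjusted p = 0.000113). Pak1 measured 13.10, 13.39, 13.15 and 13.03 at 18/1 2 hr, which overlaps the unstimulated range. At 90/5 5 hr it measured 13.23, 13.25, 12.14 and 13.26, with 1 sample more than 1 log2 unit below the other 3.

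Pak3 measured 11.78, 11.81, 12.15 and 11.85 in unstimulated neurons and 14.12, 14.47, 13.43 and 13.60 at 18/1 5 hr. The lowest of the latter lies above every sample of the other 4 conditions, and the difference was 2.01 (SE 0.37, 95% interval 1.23 to 2.79, adjusted p = 0.000287). Pak3 measured 11.69, 11.36, 12.07 and 11.42 at 18/1 2 hr and 11.58, 11.69, 11.27 and 11.68 at 90/5 5 hr, so that both conditions lie at or slightly below the unstimulated level. In limma neither of these conditions differed from unstimulated neurons beyond the spread (-0.26 and -0.34, each with an adjusted p of 1). The calls of Pak1 and Pak3 at 18/1 5 hr held under the 18 alternatives followed for single probes. Over these, Pak1 ranged from -2.84 to -1.66 and Pak3 from 1.62 to 2.40. They covered background correction, normalization, no spot filter, no array block, removal of the G and C trend, and samples or arrays left out.

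Pak2 measured 10.43, 10.40, 10.45 and 10.58 in unstimulated neurons. At 18/1 5 hr array 1 gave 8.82 and 8.70 and array 2 gave 9.98 and 9.97, so the arrays of that condition differed from each other by more than array 2 differed from unstimulated neurons. The difference was -1.10 (SE 0.30, adjusted p = 0.00525), and without array 1 it was -0.49 (adjusted p = 0.116). Without array 2 of the unstimulated neurons the adjusted p was 0.0579, at -1.05.

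**Figure D2:**
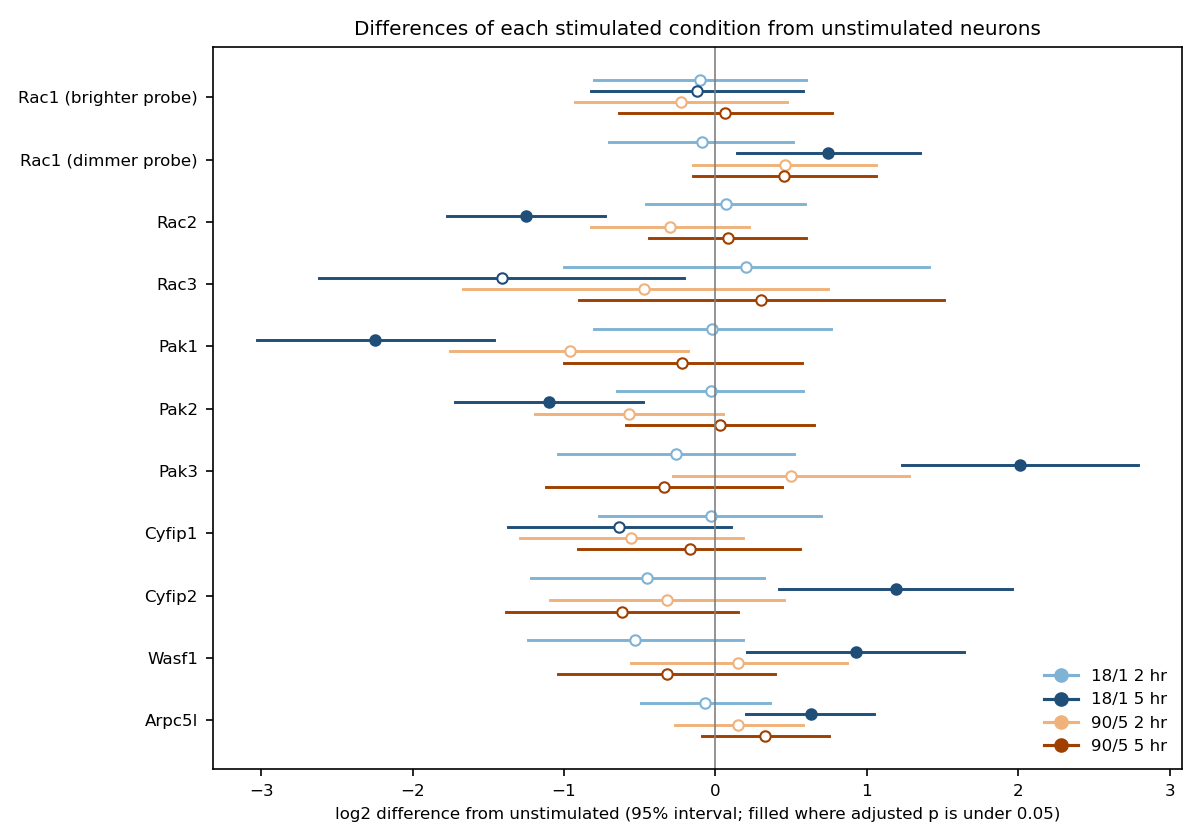
Log2 difference of each stimulated condition from unstimulated neurons (horizontal axis) for each of the 11 probes (vertical axis), with its 95% interval and filled points where the adjusted p is under 0.05. The 8 filled points all belong to 18/1 5 hr, 5 to the right of 0 and 3 to the left, and at 18/1 5 hr those of Cyfip2 and Arpc5l would lie to the left of 0, at -0.30 and -0.06, when arrays are centred on their medians alone.

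The WAVE members gave a rise of Wasf1 whose call depended on the setting, a rise of Cyfip2 that turned with the scaling, and no call for Cyfip1. Wasf1, which activates Arp2/3, measured 11.48, 11.83, 11.47 and 11.68 in unstimulated neurons and 12.81, 13.06, 12.35 and 11.95 at 18/1 5 hr. The ranges are apart by little, and the difference was 0.93 (SE 0.34, 1.90-fold, adjusted p = 0.0323). The call was lost with median centring alone (0.41, adjusted p = 0.347) and with no spot filter (0.93, adjusted p = 0.125). It was also lost without array 1 of 18/1 5 hr (0.54, adjusted p = 0.226) or its Cy5 sample (adjusted p = 0.0554). The same held without unstimulated array 1 (adjusted p = 0.117) or array 2 (adjusted p = 0.156). Without unstimulated replicate 1 or 3 the adjusted p was 0.064 or 0.0628. Wasf1 at 18/1 2 hr measured 10.84, 11.08, 11.46 and 10.97, just below the unstimulated range, with a difference of -0.53 that did not pass the test (SE 0.34, adjusted p = 1) on the slide that both conditions share.

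Cyfip2, which with Cyfip1 forms the Rac-binding part of the complex, measured 15.16, 15.21, 14.97 and 14.76 in unstimulated neurons. At 18/1 5 hr it measured 16.31, 16.09, 16.57 and 15.89 with all 4 spots saturated, so that the true signal may be higher and Cyfip2 was at least 2.28-fold higher on this normalization (adjusted p = 0.0124), although with arrays centred on their medians alone the log2 difference was -0.30. The fold is a bound against saturation and not against the scaling: the log2 difference was 0.94 with quantile normalization, where the call was lost (adjusted p = 0.1), and 1.00 with the trend on probe G and C content removed. The call was also lost without a spot filter (adjusted p = 0.0974) and without unstimulated array 1 (adjusted p = 0.053) or array 2 (adjusted p = 0.131). At 90/5 5 hr Cyfip2 measured 14.34, 14.44, 14.33 and 14.51, all below the unstimulated samples, with a difference of -0.62 (SE 0.37, adjusted p = 1). On this normalization 18/1 5 hr was at least 3.12-fold above 18/1 2 hr and at least 3.50-fold above 90/5 5 hr, although with median centring alone these log2 differences were 0.14 (adjusted p = 0.771) and, for 90/5 5 hr minus 18/1 5 hr, -0.23 (adjusted p = 0.624). No bound is given against 90/5 2 hr, where 1 of the 4 Cyfip2 spots was saturated too. Cyfip1 measured 9.56, 9.27, 9.38 and 9.50 in unstimulated neurons and 8.94, 8.19, 9.36 and 8.67 at 18/1 5 hr. These ranges overlap, and the difference was -0.64 (SE 0.35, 95% interval -1.37 to 0.10, adjusted p = 0.149). Cyfip1 did pass with median centring alone (-1.13, adjusted p = 0.0153), without the array block (adjusted p = 0.0207) and without array 2 of 18/1 5 hr (-0.86, adjusted p = 0.0443).

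Arpc5l, a form of the smallest Arp2/3 subunit, gave the smallest of the 8 called differences. It measured 11.28, 11.25, 11.20 and 11.29 in unstimulated neurons and 11.78, 11.84, 11.90 and 12 at 18/1 5 hr. The ranges are apart, and Arpc5l rose by 0.63 (SE 0.20, 1.55-fold, adjusted p = 0.0165), although with arrays centred on their medians alone the difference was -0.06. At 90/5 5 hr it measured 11.48, 11.37, 11.83 and 11.64, also above the unstimulated range, with a difference of 0.33 (SE 0.20) and an adjusted p of 1. Without unstimulated array 1 or array 2 the adjusted p at 18/1 5 hr was 0.105 or 0.109.

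The patterns were compared with each other at each time. At 5 hr, 7 of 11 probes differed between 90/5 and 18/1, of which Pak1, Rac2, Pak2 and Rac3 were higher at 90/5 and Pak3, Cyfip2 and Wasf1 lower. Over all probes 45.9% passed (30.7% higher and 15.2% lower), with a median of 0.26 against 0.19 for these 11. With median centring alone the median over all probes was 0.96 and 6603 of 7086 calls were higher instead of 3725 of 5569. Pak3 was 5.09-fold lower at 90/5 5 hr (-2.35, SE 0.37, adjusted p = 6e-05) and Pak1 4.08-fold higher (2.03, SE 0.38, adjusted p = 0.000245). Rac3, which did not pass against unstimulated neurons, was 3.29-fold higher (1.72, SE 0.58, adjusted p = 0.0201). Pak2 (0.52, adjusted p = 0.0925) and Wasf1 (-0.86, adjusted p = 0.0525) lost the call without array 1 of 18/1 5 hr, and Rac3 without array 2 (1.33, adjusted p = 0.0868). The same calls were lost for Pak2 (adjusted p = 0.0679) and Rac3 (0.165) without array 2 of 90/5 5 hr and for Wasf1 (0.0875) without array 1. With median centring alone 7 probes passed, 6 of them higher: Cyfip2 (-0.23, adjusted p = 0.624) and Wasf1 (-0.56, adjusted p = 0.193) did not pass, while Cyfip1 (1.07, adjusted p = 0.0193) and the brighter Rac1 probe (0.92, adjusted p = 0.0455) did. The Rac1 value has no settled size, since 3 of the 4 spots of this probe at 18/1 5 hr were saturated. Rac3 did not pass with no spot filter (adjusted p = 0.118). None of the 7 genes passed at 90/5 5 hr against unstimulated neurons. At 2 hr, 0 of 11 probes passed between 90/5 and 18/1 in limma (background 4.66%), with 1 at an unadjusted p under 0.05 and 2 by the methods' t-test. The largest values there were Pak1 at -0.94 (SE 0.38, adjusted p = 0.166) and Pak3 at 0.76 (SE 0.37, adjusted p = 0.270).

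Within the 18/1 pattern, 9 of 11 probes differed between 5 hr and 2 hr, 5 higher and 4 lower, against 45.0% of all probes (14.7% higher and 30.3% lower). With median centring alone, 6 of these 9 probes still passed, while Cyfip2 stood at 0.14 (adjusted p = 0.771), Arpc5l at 0.01 (adjusted p = 0.979) and the dimmer Rac1 probe at 0.81 (adjusted p = 0.124), and 554 of 6529 calls over all probes were higher instead of 1786 of 5462. With the arrays normalized as elsewhere, the 2 that did not pass were the brighter Rac1 probe (-0.02) and Cyfip1 (-0.60). Cyfip1 did pass with median centring alone (-1.09, adjusted p = 0.0187) and without the array block (adjusted p = 0.0273). It also passed with the trend on G and C content removed (-0.92, adjusted p = 0.0193). The largest differences were those of Pak3 at 2.27 and Pak1 at -2.22, and Wasf1 differed by 1.46 (SE 0.34, adjusted p = 0.00196). Within the 90/5 pattern no probe of these genes passed between 5 hr and 2 hr in limma (0 of 11, background 8.07%), with 1 at an unadjusted p under 0.05 and 1 by the methods' t-test. The test of whether the time course differed between patterns called 7 of 11 probes against 45.1% of all. With median centring alone, 5173 of 6133 calls over all probes were positive instead of 3544 of 5473.

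The comparison of 90/5 2 hr with 18/1 5 hr lies within slide 2 but differs in both pattern and time. Rac2 (0.95, adjusted p = 0.0197) and Pak1 (1.28, adjusted p = 0.0298) were higher at 90/5 2 hr, Pak3 was lower (-1.51, adjusted p = 0.0144), and Cyfip2 was lower (-1.51, adjusted p = 0.0134) but higher, at 0.50, with median centring alone. By the mean of its 10 spots Rac2 stood at 0.57 (adjusted p = 0.212) and did not pass. The Cyfip2 value has no settled size, since 4 of 4 spots at 18/1 5 hr and 1 of 4 at 90/5 2 hr were saturated. That is 4 of 11 probes, 2 in each direction, against 13.8% of all probes (11.0% higher and 2.77% lower). With median centring alone, all 4 called probes of these genes were higher, with Pak3 (-1.09, adjusted p = 0.0705) and Cyfip2 no longer called and Pak2 (1.1, adjusted p = 0.0111) and Rac3 (1.68, adjusted p = 0.0107) called, and 5727 of 5748 calls over all probes were higher instead of 1334 of 1670. None of the 4 calls held when arrays were averaged to 1 value or when only these conditions were fitted, settings in which 0 of all 12137 probes passed. The 2 arrays of 90/5 2 hr differed from each other. Pak1 gave 12.69 and 12.94 on array 1 and 11.71 and 11.56 on array 2, while Pak3 gave 11.55 and 11.73 on array 1 and 13.18 and 13.13 on array 2. By their means, array 2 lay nearer to 18/1 5 hr than to unstimulated neurons for 8 of the 11 probes, and array 1 for 2 of 11. Among the 8 probes called between those conditions the counts were 5 of 8 for array 2 and 0 of 8 for array 1. The share over all probes was not computed. Without array 1, Pak1 (-1.55, adjusted p = 0.00614) and Pak3 (1.26, adjusted p = 0.00953) passed at 90/5 2 hr against unstimulated neurons, and none of the 11 probes passed against 18/1 5 hr. Array 2 is also the one with the larger number of non-uniform spots given above; the part of these spots in the result was not tested.

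The differences at 18/1 5 hr went with the base composition of the probes. Rac3 has 55% G and C, Pak1 and Pak2 45%, Rac2 43.3%, the brighter Rac1 probe 41.7%, Cyfip2 36.7%, and Pak3, Wasf1, Arpc5l, Cyfip1 and the dimmer Rac1 probe 35%. Each of the 5 probes that rose holds at most 36.7% and each of the 3 that fell at least 43.3%, whereas Cyfip1 at 35% stood at -0.64. Of the 2 Rac1 probes, the one of lower G and C content gave the rise, but the other was saturated in 3 of 4 spots at 18/1 5 hr and the difference between them was not tested. Over all 12137 probes the median difference was 0.34 for those of 35% or less (3010 probes, 30.5% higher and 9.24% lower) and -1 for those over 50% (1818 probes, 3.14% higher and 63.5% lower). For each sample, a slope on G and C content was taken from each probe's log2 deviation from its mean over all samples. The slope is therefore relative to the average of the samples, and its sign is not a sample's own dependence on composition. In log2 units per 10 percentage points, the slope was 0.14 to 0.19 in the samples of slide 1 and 0.21 to 0.38 at 90/5 5 hr. It was -0.54 to -0.41 at 18/1 5 hr, -0.33 to -0.31 on array 2 of 90/5 2 hr and 0.05 to 0.07 on array 1 of that condition. The slope, slide 2 and the non-uniform spots thus moved with the results for these genes, and their part in the results was not tested beyond the values that follow.

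**Figure D3:**
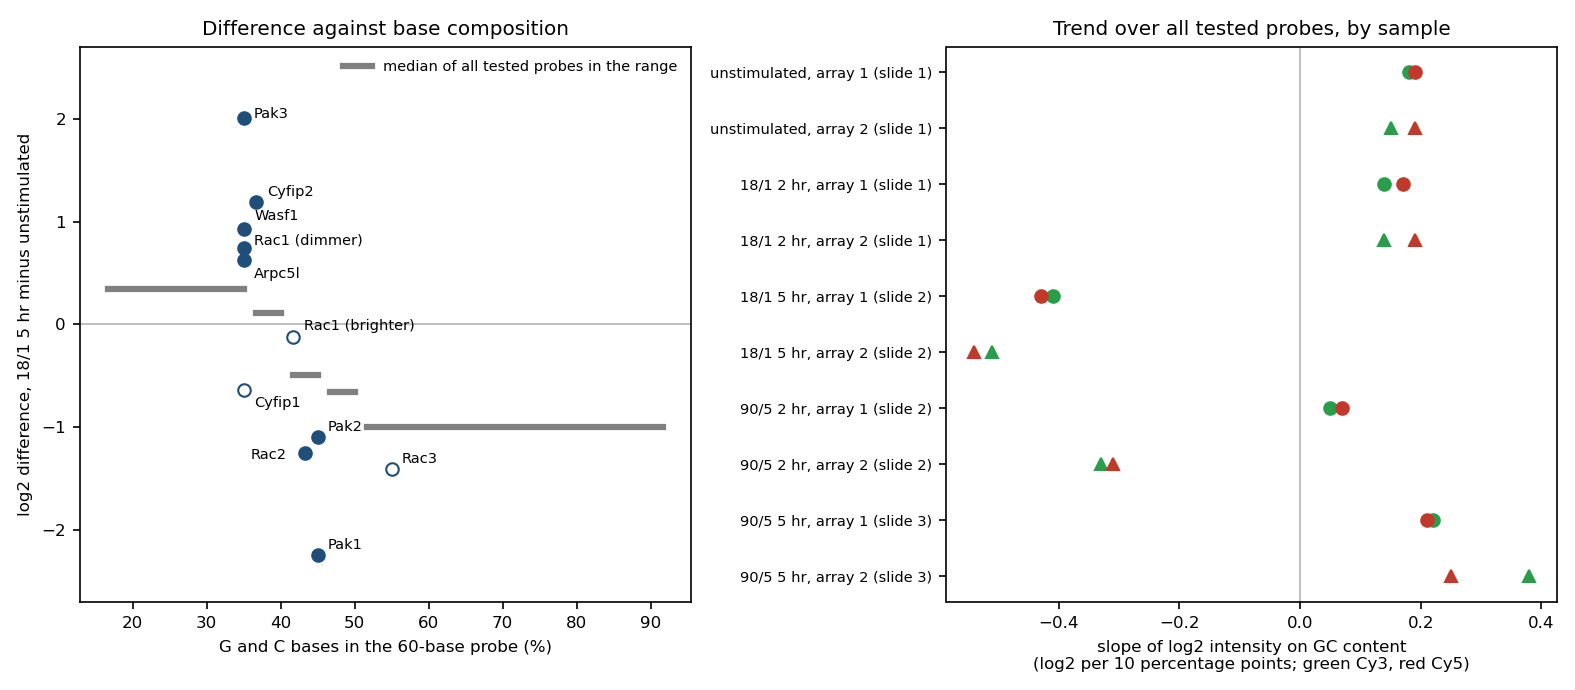
Left, log2 difference of 18/1 5 hr from unstimulated neurons (vertical axis) against the percent of G and C bases in the probe (horizontal axis) for the 11 probes, filled where called, with grey bars at the medians of all tested probes by range, which fall from 0.34 to -1. Right, slope on G and C content of the log2 deviation from each probe's mean over all samples, for each sample over all tested probes. Arrays are on the vertical axis, and 0 stands for the average of the samples. The slopes of 18/1 5 hr and of array 2 of 90/5 2 hr lie below 0 and all others above it.

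With each sample's trend on G and C content taken out, a setting chosen after seeing the data, 5 of 11 probes passed at 18/1 5 hr against unstimulated neurons, beside 35.5% of all probes, with 2088 of 4312 calls higher. Of these, 4 were also called without the correction. Pak1 was lower by -1.66 (SE 0.32, adjusted p = 0.000602) and Pak3 higher by 1.70 (adjusted p = 0.00124), Rac2 stood at -0.83 (adjusted p = 0.0107) and Cyfip2 at 1.00 (adjusted p = 0.0272). Cyfip1 joined them at -0.95 (adjusted p = 0.0169). Pak2 (-0.51, adjusted p = 0.121), Wasf1 (0.62, adjusted p = 0.170), Arpc5l (0.32, adjusted p = 0.235) and the dimmer Rac1 probe (0.43, adjusted p = 0.255) no longer passed, and Rac3 went from -1.41 to -0.39. Between the patterns at 5 hr 5 probes passed (34.6% of all probes), where Rac3 (0.60, adjusted p = 0.397), Pak2 (0.53, adjusted p = 0.113) and Wasf1 (-0.86, adjusted p = 0.0594) did not and Cyfip1 did (0.85, adjusted p = 0.0303). There were 6 between 18/1 at 5 hr and 2 hr (36.3%), and between 90/5 2 hr and 18/1 5 hr only Cyfip2 and Pak3 (7.84%). The median difference over all probes at 18/1 5 hr was then 0.02. Since the correction also takes out any true difference that goes with base composition, both sets of values are given.

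**Figure D4:**
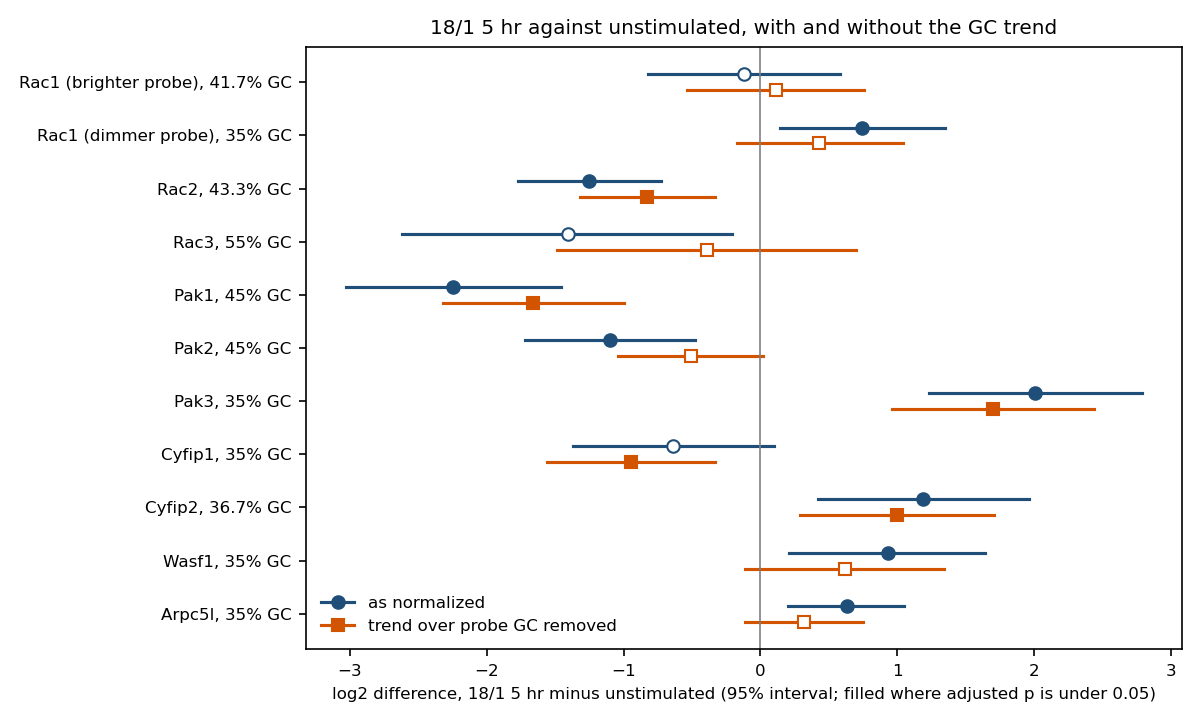
Log2 difference of 18/1 5 hr from unstimulated neurons (horizontal axis) with its 95% interval for the 11 probes (vertical axis, with the percent of G and C), as normalized (blue circles) and with the trend on G and C content removed (orange squares), filled where the adjusted p is under 0.05. Pak1, Pak3, Rac2 and Cyfip2 are filled in both, and Cyfip1 only after removal.

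Of 69 other genes of the route, listed by role, 46 had a tested probe. At 18/1 5 hr 8 were higher and 8 lower than in unstimulated neurons, with a median of 0.02, beside 45.1% called and a median of -0.27 over all probes; with median centring alone 2 were higher and 13 lower, and none of the 16 turned direction. Among 11 exchange factors, which load Rac with GTP, Dock3 (2.02, adjusted p = 0.00025) and Def6 (1.33, adjusted p = 0.00383) were higher and none was lower, whereas with the trend on G and C content removed Trio (0.87, adjusted p = 0.0173) was also higher and Prex1 (-0.86, adjusted p = 0.03) was lower. At 90/5 2 hr, where 6.07% of all probes passed, 2 of the 46 genes did. Dock3 was higher (2.06, adjusted p = 0.00175) and Git2, an effector, lower (-0.89, adjusted p = 0.0293). With the trend on G and C content removed 2 genes passed, beside 605 of all 12137 probes. With median centring alone 3 passed, beside 538 probes. All of these genes were higher, so the call of Git2 as lower was lost in both settings. Among 9 GTPase-activating and inhibitory proteins at 18/1 5 hr, Srgap2 (1.19) was higher, and Racgap1 (-1.45) and Arhgdig (-1.36) were lower. With the trend on G and C content removed, Arhgdia was also higher there, by 1 (adjusted p = 0.00431). Pak4, the 1 tested kinase of Pak group II, was higher by 1.68 at 18/1 5 hr (adjusted p = 0.00185).

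Of the 5 other WAVE subunits tested, Nckap1 (1.41) and Abi2 (0.90) were higher at 18/1 5 hr than in unstimulated neurons. Abi1 was lower (-1.63), and Wasf2 (0.16) and Brk1 (-0.49) did not pass. Of 8 other Arp2/3 subunits, Arpc3 (0.99) was higher and Arpc5 (-1.60), Arpc4 (-0.94) and Arpc1a (-0.76) were lower. Arpc5 is the close relative of Arpc5l. Of 8 effectors and actin regulators, cortactin (Cttn, 1.22) was higher and Git2 (-0.95) lower. Of 4 related GTPases, Rhog (-1.53) was lower, while Cdc42 (-0.09) and Rhoa (0.23) did not pass. With the trend on G and C content removed, 12 of the 46 passed, 9 higher and 3 lower, beside 35.5% of all probes. Of these 12 genes, 9 were called in both settings. With median centring alone Pak4 (0.74, adjusted p = 0.13), Nckap1 (0.33, adjusted p = 0.489), Abi2 (0.33, adjusted p = 0.544), Arpc3 (0.01, adjusted p = 0.981), Srgap2 (0.45, adjusted p = 0.406), Cttn (0.85, adjusted p = 0.0561) and Arpc1a (-0.73, adjusted p = 0.13) did not pass. With the trend removed Dock3 (2.60), Pak4 (2.38), Def6 (1.75) and Abi1 (-1.82) lay further from 0, whereas Rhog stood at -0.50, Racgap1 at -0.56, Arhgdig at -0.54, Arpc1a at -0.53, Git2 at -0.36, Abi2 at 0.59 and Arpc4 at 0.08 and did not pass.

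Across the 20 samples, Pak1 and Pak3 went in opposite directions (Pearson r = -0.91), Rac2 followed Pak1 (0.88) and opposed Pak3 (-0.92), and Wasf1 opposed Pak1 (-0.87). The brighter Rac1 probe had coefficients of -0.21 to 0.27 with the other 9 genes, but 3 of its 4 spots at 18/1 5 hr and 2 of 4 at 90/5 2 hr were saturated. These values describe samples that share arrays, slides and the slopes above, and carry no test. Among 10354 other gene names, the one most alike was the transcript ENSMUST00000091621 for Pak1 (0.986), Hspa4l for Pak3 (0.977), Zbtb4 for Pak2 (0.973), Fbll1 for Rac2 (0.967), Dgcr2 for Wasf1 (0.962) and Psme1 for Rac3 (0.95). The lowest of these best matches was Spna2 for Rac1 (0.83), with E2f3 for Cyfip2 (0.933), H60a for Cyfip1 (0.87) and Rab11fip4 for Arpc5l (0.867) between.

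All 10 markers of sensory neurons were at least 2 times background in every unstimulated sample. The mean log2 level of these 10 genes was 14.54 to 14.66 in unstimulated samples and 14.03 to 14.31 at 18/1 5 hr. The mean of 6 fibroblast genes was 10.38 to 11.49 in unstimulated samples and 11.68 to 12.04 at 18/1 5 hr, where 1 of 4 tested passed (Col1a1, 1.79). That of 3 endothelial genes was 8.68 to 9.16 and 7.33 to 7.59, with Pecam1 the 1 tested (-1.36). Those of 7 Schwann cell genes (10.17 to 10.54 and 10.02 to 10.18) and 7 leukocyte genes (9.37 to 9.71 and 9.11 to 9.72), gave no called gene, with 1 and 2 of them tested. Of 7 spinal cord genes, looked at because the labels' protocol names spinal cords as the tissue dissociated, Chat, Mnx1, Gad1 and Olig2 were under 2 times background in all 4 unstimulated samples, Gfap reached it in 2, and Slc18a3 and Slc32a1 in all 4. The 1 tested, Slc18a3, was lower at 18/1 5 hr (-1.13, adjusted p = 0.00155). The means of Gad1 (6.70 and 8.73) and Chat (6.97 and 8.15) were higher there than in unstimulated neurons, with no test since they did not pass the spot filter. In such RNA from whole cultures, fewer cells of a type and less RNA per cell cannot be told apart, and the part of fibroblast or endothelial cells in the results for these genes was not tested. The mean of 5 genes known to respond to firing (Fos, Egr1, Nr4a1, Npas4 and Arc) was 7.98 to 8.51 in unstimulated samples and 10.65 to 12.68 in all stimulated ones.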

How the data were processed

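Expression in 20 samples was read on 10 two-colour Agilent 60-base mouse arrays. The authors deposited the scanner's own tables, which give every spot a mean intensity and a median background intensity per colour on a linear scale, before any normalization. They were extracted with Feature Extraction 10.7.1.1 (slide 1) or 10.7.3.1 (slides 2 and 3). Of the columns per array, 10 were used and 72 per-colour columns were not. The later probe annotation (mm9) served for all arrays. For 18/1 5 hr and 90/5 2 hr the labels give both samples of an array the same colour, so these are named by array and colour.

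With limma 3.58.1 in R 4.3.3, background was corrected by normexp (offset 50), colours by loess with control spots at weight 0, and arrays by Aquantile. A spot was kept where its signal reached 2 times background, without the non-uniform mark, in all 20 samples, as the study's methods ask, and spots of a probe were averaged. The study's iterative normalization was not repeated. A limma model with condition means, a colour term and the array as a random block (correlation 0.536) was fitted to 12137 probes with empirical Bayes moderation and Benjamini-Hochberg adjustment within each comparison at 0.05. Every probe of every member is named; the other genes of the pathway are named by list where called, or as examples. The fit was tested on simulated data. The result of 1 further marker gene is not reported here. The plots were made with matplotlib 3.10.9, pandas 2.3.3 and numpy 2.4.6 in Python 3.11.15.

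The members and gene lists were chosen with earlier results of these data known. Alternatives covered background correction, normalization, spot filters, saturated probes, probes per gene, the colour and array terms, array means, array weights, the samples fitted, the methods' t-test, replicate number as a block, each sample or array left out, and, chosen after seeing the data, removal of each sample's trend over probe G and C content. The number of arrays limits the precision.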

Additional observations from a re-analysis of the deposited data

Results flagged for a closer look

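In 3 of 55 groups of 4 samples, 1 sample lay far from the other 3. Chance alone would single out about 1 group in 20 if the 4 values were independent. The colours of an array were correlated (0.536) and the groups share samples, so this rate need not hold here. Pak1 was 12.14 in replicate 3 of 90/5 5 hr, where the nearest of the others was 13.23. Pak2 was 10.12 in the Cy5 sample of array 1 of 90/5 2 hr, where the nearest was 9.85. Cyfip2 was 14.28 in the Cy3 sample of that array, where the nearest was 14.81.

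The change from 2 hr to 5 hr differed between the patterns for 7 of the 11 probes, against 45.1% of all probes. The difference, 90/5 minus 18/1, was 2.97 for Pak1 (SE 0.53, adjusted p = 0.000172), 1.67 for Pak2 (adjusted p = 0.00309) and -3.11 for Pak3 (adjusted p = 0.000103). Among the Rac genes it was 1.69 for Rac2 (adjusted p = 0.000731) and 2.39 for Rac3 (adjusted p = 0.0219). In the WAVE complex it was -1.94 for Cyfip2 (adjusted p = 0.00487), a value of no settled size since 4 of 4 spots at 18/1 5 hr and 1 of 4 at 90/5 2 hr were saturated, and -1.94 for Wasf1 (adjusted p = 0.00291). By the mean of its 10 spots, Rac2 changed from 2 hr to 5 hr by -0.84 at 18/1 and by 0.19 at 90/5. With the 3 spots that passed the filter, these changes were -1.32 and 0.38. Of the 7 calls for the difference between patterns, 6 remained with median centring alone and 4 with no spot filter. Slide and condition cannot be told apart in this contrast. With the trend on G and C content removed, Rac3 (0.89, adjusted p = 0.372) and Pak2 (0.86, adjusted p = 0.0706) no longer passed, Cyfip1 did (1.55, adjusted p = 0.00711), and Pak1 (2.16), Pak3 (-2.55), Rac2 (1.14), Cyfip2 and Wasf1 (-1.37) still passed.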

How the results depend on the processing

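Counts are of the 11 probes that passed. For 18/1 5 hr against unstimulated neurons the count went from 8 to 4 with no spot filter and to 5 by the adjusted methods' t-test or with the G and C trend removed. Between the patterns at 5 hr it went from 7 to 4 by the adjusted methods' t-test, and for the difference in time course from 7 to 4 with no spot filter. For 90/5 2 hr against 18/1 5 hr it went from 4 to 2 with a filter within 1 condition or with the trend removed, to 1 with array weights, and to 0 with no filter, array means, only the samples compared or the adjusted methods' t-test. With array weights the counts of 0 rose to 2 (18/1 2 hr), 1 (90/5 2 hr) and 3 (90/5 5 hr) against unstimulated neurons, to 3 for the patterns at 2 hr and to 1 for 90/5 over time. By the unadjusted methods' t-test they rose to 1, 2, 1, 2 and 1 in this order. Over all 12137 probes, 1746, 2032, 3038, 1707 and 2386 passed with array weights in the same order. By this t-test 252, 2460, 632, 2007 and 2054 passed. Without the array block, 90/5 2 hr gave 1 call against unstimulated neurons and 1 against 18/1 2 hr. Centring on medians alone turned Cyfip2 (-0.30) and Arpc5l (-0.06) at 18/1 5 hr against unstimulated neurons and Cyfip2 (0.50) at 90/5 2 hr against 18/1 5 hr. The cause was not tested. Over all probes, calls at 18/1 5 hr against unstimulated neurons went from 5474 of 12137 to 10063 of 39429 with no filter. That is a smaller share, since more probes are tested. With a filter within 1 condition, which also tests more probes, 8910 passed. Calls at 90/5 2 hr against 18/1 5 hr, over the same 12137 probes, went from 1670 to 951 with the trend removed and 577 with array weights. They were 4165 without the array block and 5748 with median centring.

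Leaving out each sample or array in turn gave 0 calls for 18/1 2 hr and 90/5 5 hr against unstimulated neurons, 3 to 9 for 18/1 5 hr (4 without unstimulated array 1 and 3 without array 2) and 0 to 2 for 90/5 2 hr. It gave 0 to 3 between the patterns at 2 hr, 5 to 7 at 5 hr, 5 to 9 for 18/1 over time (5 without array 2 of 18/1 2 hr), 0 to 4 for 90/5 over time (4 without array 1 of 90/5 2 hr and 1 without replicate 3 of 90/5 5 hr), 0 to 6 for 90/5 2 hr against 18/1 5 hr (1 without array 1 of 18/1 5 hr) and 6 to 9 for the difference in time course. Without array 1 of 90/5 2 hr the highest counts at 90/5 2 hr against unstimulated neurons and 18/1 2 hr and the lowest against 18/1 5 hr were reached. Shares over all probes are not set beside these left-out counts. The counts therefore show only how far the calls of these genes moved, and not whether they moved apart from all probes.

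With replicate number as a block, 0 probes passed at 18/1 2 hr and 90/5 5 hr against unstimulated neurons, and over all probes 7 and 353 passed instead of 2 and 7. Samples share only this number: 9 of 12 pairs of the same number correlated above 0.1 (-0.07 to 0.70), and the same number correlated best in 14 of 24 cases. Of 99 differences of single probes, 98 kept direction and call without background subtraction, 97 with quantile normalization and 81 with median centring. Signal over background limits the dim probes, and saturation limits Cyfip2 and the brighter Rac1 probe.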
